A study of Caenorhabditis elegans with 2 samples.

Results

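The genes described here carry names used mainly for splicing factors in the nematode Caenorhabditis elegans. The data are the places where a tagged transcription factor, CEH-30, was found on the genome near these genes. The genes were chosen by name: protein-coding genes of the Ensembl WBcel235 annotation called snr-, rsp-, prp-, rnp-, uaf- or sftb- with a number, which gave 42 of the 19973 protein-coding genes on the 6 nuclear chromosomes. The rule itself uses names and no measured value. There were 7 snr, 8 rsp, 2 uaf, 3 sftb, 13 prp and 9 rnp genes. Around the annotated 5′ end of each gene a promoter window was drawn, reaching 1000 bp upstream and 500 bp downstream, and a gene was said to have a summit if the highest point of a peak lay in that window.

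Introns are removed from pre-mRNA by the spliceosome, which is built from small nuclear ribonucleoprotein particles (snRNPs) and many associated proteins. Sm proteins form a ring on the small nuclear RNAs, SR proteins bind exons and help to choose splice sites, the U2AF and SF3b proteins act at the 3′ splice site and branch point, and Prp proteins, named after yeast mutants with pre-mRNA processing defects, serve at several steps of assembly and catalysis. These genes are needed in nearly all cells, and in C. elegans several of them stand in operons or share a promoter region with a neighbour. CEH-30 is a BarH-type homeodomain protein known for the survival of the male-specific CEM neurons.

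The chromatin came from whole late embryos of mixed sex of strain OP120, genotype unc-119(ed3) III; wgIs120, in which wgIs120 is the integrated eGFP-tagged ceh-30 transgene. The assay was chromatin immunoprecipitation followed by sequencing (ChIP-seq), in 2 biological replicates that form 1 group, so there was no other genotype, stage or treatment to compare with. Peaks from whole embryos do not tell in which cells the protein was bound, and a summit in a window does not by itself show that CEH-30 bound there or that it regulates the gene. Both replicates carry the same transgene, and the labels give no embryo ages.

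The authors deposited 4 peak lists on the ce11 assembly, whose coordinates are those of WBcel235. The optimal list, which passed their irreproducible discovery rate (IDR) procedure, held 545 peaks, and its signal values ran from 38.9 to 792 with a median of 48.5. Relaxed lists, deposited as input to that procedure and holding peaks together with background, had 30000 peaks for the pooled replicates (median signal 13.5, lowest 10.1), 30000 for replicate 1 (median 7.70, range 5.61 to 180) and 17926 for replicate 2 (median 9.89, range 7.77 to 661). Signal is the authors' own value for each peak on a scale that differs between lists, so each value below stands with its rank, where rank 1 is the strongest peak of that list. The lists hold no read counts and depth is unknown, so the intervals given cover the counting of genes only.

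Of the 42 splicing factor genes, 5 had a summit of the optimal list in the window: rsp-1, rsp-2, rnp-6, prp-31 and snr-2. That is 11.9% (95% exact Clopper-Pearson interval 3.98% to 25.6%), against 2.40% of all protein-coding genes. The 5 genes rest on 4 summits, because rsp-1 and rsp-2 share one. In the pooled relaxed list 33 of the 42 had a summit, 78.6% (interval 63.2% to 89.7%), against 45.0% of all genes. In replicate 1 the count was 29, or 69.0%, against 45.3%, and in replicate 2 it was also 29, against 31.2%. Both replicates held a summit for 22 of the 42, 52.4% (interval 36.4% to 68.0%), against 20.3%, and at least one replicate did for 36, against 56.2%.

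The share of the members reached was also given for longer lists, cut by pooled rank. The 545 strongest pooled peaks gave the same counts as the optimal list, 5 members and 480 genes. The optimal and longer counts are therefore nested and not separate evidence. The 1000 strongest pooled peaks reached 11 of the 42 genes, 26.2%, against 4.53% of all genes, and the 2000 strongest reached 17, 40.5%, against 7.93%. With 5000 peaks the members' share was 54.8%, against 14.1%, and with 10000 it was 61.9%, against 21.5%. Ranked by the strongest summit in its window, with genes that had none placed last, the median splicing factor gene stood at pooled rank 3832, with 11.96% of all genes better placed. No test of these shares was made, since the genes share summits and neighbours and were chosen with earlier results of these data known.

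**Figure D1:**
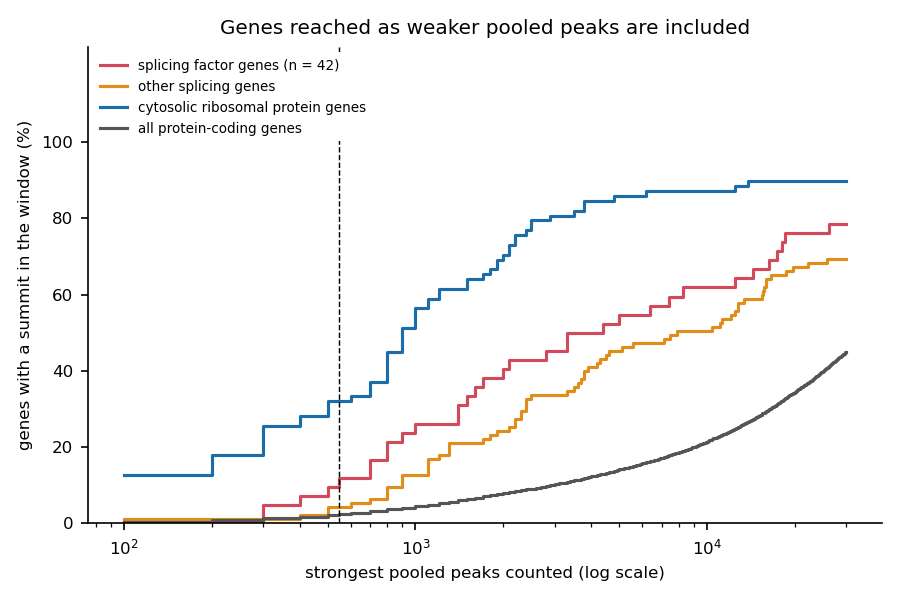
Share of genes (y axis, %) with a summit in the promoter window as more of the strongest pooled peaks are counted (x axis, number of peaks, log scale), for the 42 splicing factor genes, 95 other splicing genes, 78 ribosomal protein genes and all 19973 protein-coding genes; the dashed line marks the 545 peaks of the optimal list. The splicing factor genes stand at 11.9% at the line and 40.5% at 2000 peaks, above all genes (7.93% there) and below the ribosomal protein genes (70.5%).

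The highest signal at any member was between rsp-1 and rsp-2, a pair of SR protein genes transcribed away from each other from 5′ ends 407 bp apart. The peak, at II:11453098-11453441, had a pooled signal of 47.6 and rank 294 of 30000. Its summit lay in intergenic sequence, 92 bp upstream of rsp-1 and 315 bp upstream of rsp-2. Replicate 1 gave a signal of 28.0 and rank 167, with the summit 103 bp upstream of rsp-1. Replicate 2 gave a signal of 17.7 and rank 1104, 86 bp upstream, so the 3 summits fell close together while the ranks of the replicates lay far apart.

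The sequences under 6 member summits, with pooled ranks from 294 to 1346, are shown so that the DNA there can be set beside the words discussed further on. Each runs 5′ to 3′ on the strand of the gene named first, 50 bases to either side of the pooled summit, read from the ce11/WBcel235 genome. Some summits in that range of ranks are not shown. Capitals mark words searched on either strand: the homeodomain words, which were TAATTG, the palindrome TAATTA and, with a different core, TAAACG; the CG-holding words, which were GACGCA, its shifted form ACGCAG, the word GCGCCA, the word CGCGCA and, last of the group, GCGCAC; and the longer word GGTCTCGC, which was added after it was seen at rsp-7 and rsp-5. A sequence without capitals held none of them.
rsp-1 and rsp-2, II:11453220-11453320, strand plus: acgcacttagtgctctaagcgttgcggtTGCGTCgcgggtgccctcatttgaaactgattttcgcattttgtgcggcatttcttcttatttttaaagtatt
rsp-8, III:11825743-11825843, strand plus: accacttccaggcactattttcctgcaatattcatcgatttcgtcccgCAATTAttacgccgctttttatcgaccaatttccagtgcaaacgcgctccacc
rsp-7, II:10658911-10659011, strand plus: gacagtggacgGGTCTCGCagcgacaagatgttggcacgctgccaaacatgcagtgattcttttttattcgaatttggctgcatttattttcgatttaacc
prp-6, V:18021632-18021732, strand plus: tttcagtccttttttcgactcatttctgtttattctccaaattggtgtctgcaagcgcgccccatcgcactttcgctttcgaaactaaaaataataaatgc
prp-8, III:8163949-8164049, strand plus: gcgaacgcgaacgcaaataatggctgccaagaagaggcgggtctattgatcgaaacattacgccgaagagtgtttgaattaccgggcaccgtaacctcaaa
rsp-5 and snr-3, II:6489961-6490061, strand plus: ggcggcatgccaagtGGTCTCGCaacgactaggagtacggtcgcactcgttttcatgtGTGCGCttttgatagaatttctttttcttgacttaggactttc

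The rsp-1 window held GACGCA on the other strand, printed as TGCGTC. The rsp-8 window held TAATTG on the other strand, printed as CAATTA and lying across the summit. The rsp-7 window and the window shared by rsp-5 and snr-3 both held GGTCTCGC as printed, and the shared window also held GCGCAC on the other strand. Those of prp-6 and prp-8 held none of the 9 words.

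The other members of the optimal list lay on chromosome I. The gene rnp-6 encodes the homologue of human PUF60, which acts in 3′ splice site recognition. Its peak, at I:3546895-3547238, had a pooled signal of 43.5 and rank 392, 157 bp upstream of rnp-6 and only 4 bp upstream of rde-10, an RNA interference gene on the other strand. It ranked 1058 in replicate 1 with a signal of 16.3 and 220 in replicate 2 with a signal of 30.6, the best rank of any member in replicate 2. The rnp-6 summit thus lay nearer to rde-10 than to the splicing gene.

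The gene prp-31 encodes a U4/U6 snRNP protein, and its peak at I:5127417-5127760 had a pooled signal of 42.2 and rank 422. The summit was 239 bp upstream of prp-31 and 388 bp upstream of mat-1, a gene for a subunit of the anaphase-promoting complex on the other strand. Replicate 1 gave 18.9 at rank 679 and replicate 2 gave 22.6 at rank 526. The gene snr-2 encodes the Sm protein SmB, and its peak at I:13338934-13339277 had a pooled signal of 39.8 and rank 503, 291 bp upstream of snr-2 but 175 bp from W08E3.4 on the other strand. It gave 17.8 at rank 820 in replicate 1 and 22.2 at rank 557 in replicate 2. These prp-31 and snr-2 peaks were the most even between replicates of the 4 optimal summits.

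Chromosome I carried 3 of the 5 members with an optimal summit. Of the 7 splicing factor genes on chromosome I, 3 had one, 42.9%, against 4.86% of the 2878 protein-coding genes there. Of the 35 elsewhere, 2 had one, 5.71%, against 1.99% of 17095 genes, and those 2 are the rsp-1 and rsp-2 pair with its single summit. The 2000 strongest pooled peaks reached 13 of the 35 members outside chromosome I, 37.1%, against 7.07% of all genes there. On chromosome I they reached 4 of 7, 57.1%, against 13.1%. The 13 include rsp-1 with rsp-2 and rsp-5 with snr-3, and each of these pairs shares a summit. The part of the chromosome in the counts was not tested.

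**Figure D2:**
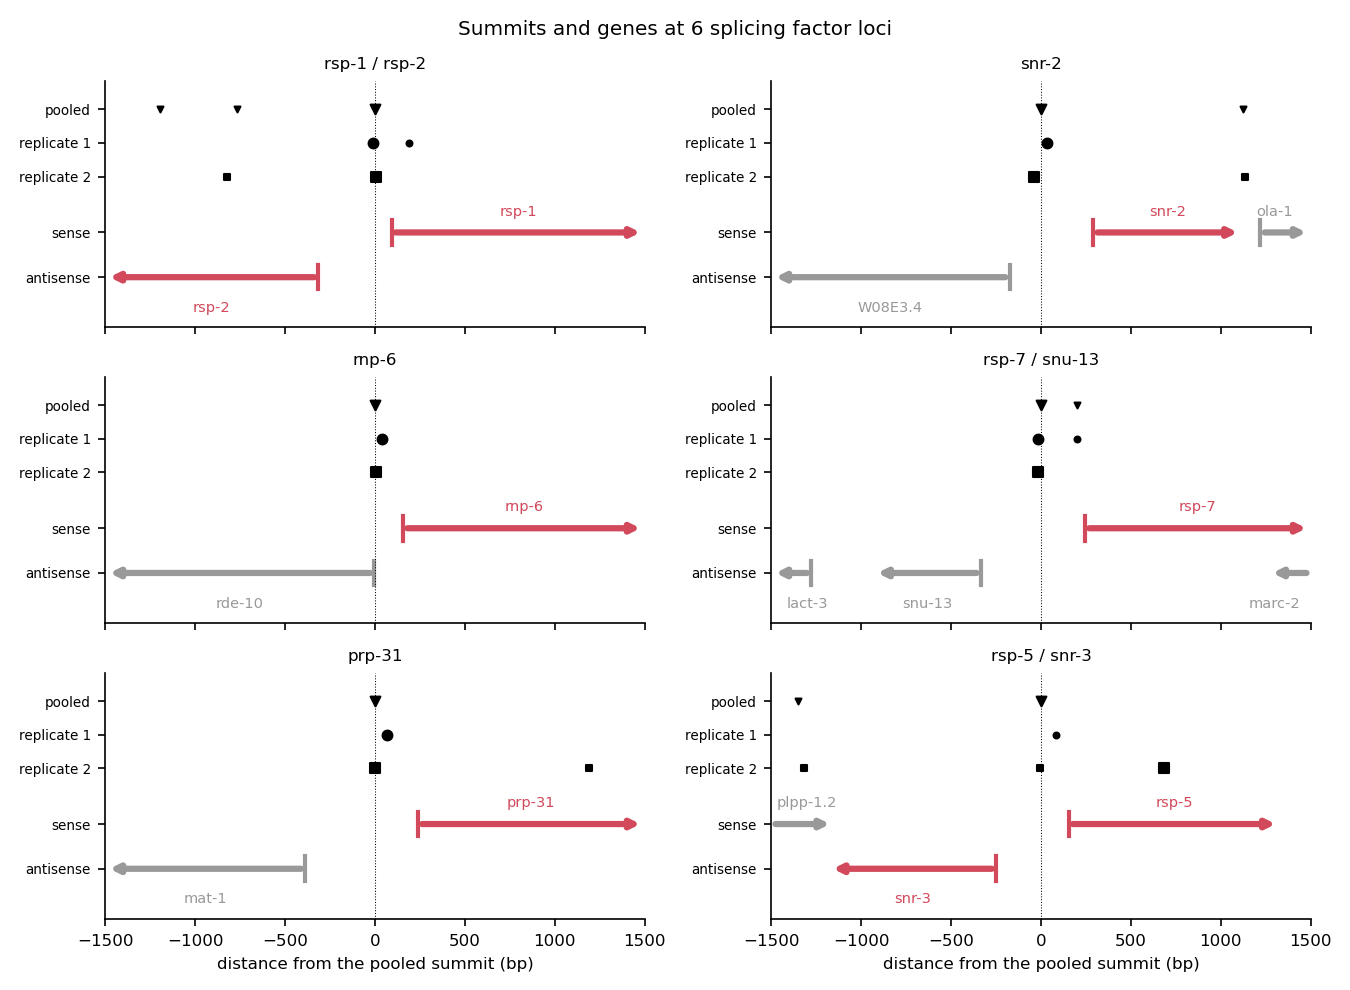
Summits (top 3 rows: pooled, replicate 1, replicate 2) and protein-coding genes (arrows from 5′ to 3′, ticks at 5′ ends, splicing factor genes in red and others in grey) at 6 loci; the x axis is distance from the pooled summit in bp, with the gene on the upper gene row running to the right, and large symbols mark peaks among the 2000 strongest of their list. In every panel the central summit lies between 2 genes that point away from each other, as at rsp-1 and rsp-2, whose 5′ ends are 407 bp apart. These 6 loci are not the 6 strongest. Among those not shown, rsp-8 (pooled rank 613) and prp-6 (750) have no 5′ end on the other strand within 1000 bp upstream.

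All 7 Sm protein genes had a summit in at least 1 replicate (interval 59.0% to 100%), against 56.2% of all genes. Counts in families this small are given here and below as descriptions. Of the 7 snr genes, 6 had a pooled summit, 85.7%, against 45.0%, with signals from 21.0 to 39.8. The 2000 strongest pooled peaks held 5 of these, 71.4% of the family, against 7.93%. Replicate 1 had a summit at 5, 71.4%, against 45.3%, and replicate 2 at all 7, against 31.2%. After snr-2 the strongest was snr-6 (SmE), with a pooled signal of 35.8 at rank 677, 245 bp upstream. The replicates differed there, since snr-6 ranked 10139 in replicate 1 with a signal of 8.80 and 929 in replicate 2 with a signal of 18.8.

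The SmG gene snr-7 had a pooled signal of 25.96 at rank 1593, with rank 1130 in replicate 1 and 6067 in replicate 2. The SmF gene snr-5 had 25.8 at rank 1618, and it ranked 544 with a signal of 20.2 in replicate 1 and 4420 with a signal of 12.03 in replicate 2. The replicate summits of snr-5 also lay apart, 507 bp and 990 bp upstream. The SmD2 gene snr-4 had a pooled signal of 21.0 at rank 3226 and no summit in replicate 1, and its replicate 2 summit had a signal of 16.3 at rank 1469. Its pooled summit lay 31 bp from the small nuclear RNA gene T11F9.15, the only strongest member summit within 200 bp of a tRNA, snoRNA, snRNA or rRNA gene. The SmD3 gene snr-1 had no pooled summit and no replicate 1 summit, and a replicate 2 signal of 11.7 at rank 4899.

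The SmD1 gene snr-3 shares its promoter region with the SR protein gene rsp-5, with 5′ ends 404 bp apart on opposite strands. Their common summit had a pooled signal of 27.5 at rank 1346, 250 bp upstream of snr-3 and 154 bp upstream of rsp-5. In replicate 1 the shared summit ranked 2048 with a signal of 13.6. In replicate 2 the summit near rsp-5 ranked 2221 with 14.5, and snr-3 had a stronger one, 932 bp upstream, at rank 1327 with 16.8. This makes the snr-3 and rsp-5 locus a counterpart of rsp-1 and rsp-2, with a lower signal.

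Among the SR protein genes 7 of 8 had a pooled summit, against 45.0% of all genes, with signals from 20.9 to 47.6. The same 7 had a summit in each replicate, against 20.3% of all genes. Next to rsp-1 and rsp-2 stood rsp-8, the homologue of Tra2, an activator of exon inclusion. It had a pooled signal of 37.2 at rank 613, just below the lowest optimal signal of 38.9, with rank 812 in replicate 1 and 779 in replicate 2. The summit of rsp-8 lay 625 bp upstream, farther out than most members. The gene rsp-7 had 35.1 at rank 722, with ranks 1354 and 670 in replicates 1 and 2, in a region it shares with snu-13. That neighbour encodes a U4 snRNP protein and has its 5′ end 580 bp from that of rsp-7, so this summit too lay between 2 splicing genes.

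The gene rsp-6 had a pooled signal of 23.9 at rank 2042, and ranked 1300 in replicate 1 but 11260 in replicate 2. The SRSF1 homologue rsp-3 had 20.9 at rank 3269, with ranks 881 and 9591 in replicates 1 and 2, and its summit was nearer to spin-4, 127 bp away, than to rsp-3, 269 bp away. The replicate 1 summit of rsp-3 lay 409 bp upstream and that of replicate 2 lay 269 bp upstream. Both rsp-6 and rsp-3 were thus better ranked in replicate 1. The gene rsp-4, for the homologue of human SRSF2, had no summit in any list. A pooled summit of signal 36.0 and rank 672 lay 1299 bp upstream of rsp-4, outside the window.

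Of the U2AF genes, uaf-1 for the large subunit had no summit in any window, and the nearest pooled summit was 1299 bp upstream with a signal of 14.0. The small subunit gene uaf-2 had a pooled summit 154 bp downstream of the 5′ end in its own intron, with a signal of 16.2 at rank 8260. Its replicate summits lay elsewhere, 89 bp upstream in replicate 1 at rank 1484 and 457 bp upstream in replicate 2 at rank 1847.

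All 3 sftb genes, for subunits of the branch point complex SF3b, had a pooled summit (interval 29.2% to 100%), against 45.0% of all genes. The largest subunit's gene sftb-1 had a signal of 32.3 at rank 891, with ranks 962 and 1490 in replicates 1 and 2, but the summit lay 488 bp upstream in the 5′ UTR of R10E4.1. The gene sftb-2 had 24.4 at rank 1936 and ranked 450 in replicate 1 with a signal of 21.2, while replicate 2 had no summit there. The pooled sftb-2 summit lay 52 bp from W03F9.2 and 151 bp upstream of sftb-2. The gene sftb-6 had 16.8 at rank 7336, in an intron of luc-7L3, 584 bp upstream. Replicate 1 had rank 1765 there, 588 bp upstream. The replicate 2 summit, at rank 12243, was a different one, 118 bp upstream. Only sftb-1 had close ranks in both replicates.

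The prp genes were spread over the whole range. Of the 13, 10 had a pooled summit, 76.9%, against 45.0% of all genes, with signals from 12.6 to 42.2. Replicate 1 had one at 7, 53.8%, against 45.3%, and replicate 2 at 8, 61.5%, against 31.2%. Both replicates had one at 4, 30.8%, against 20.3%. After prp-31 the strongest was prp-6, whose product bridges the U5 and U4/U6 particles, with a signal of 34.6 at rank 750 and ranks 1581 and 906 in replicates 1 and 2. Its summit lay 797 bp upstream. The gene prp-8, for the U5 protein at the catalytic core, had 31.7 at rank 933, with no summit in replicate 1 and rank 331 with a signal of 26.5 in replicate 2. The reverse held for prp-40, a U1 snRNP-associated protein, with a pooled 26.6 at rank 1472, rank 234 and signal 25.8 in replicate 1, and no summit in replicate 2.

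The prp-8 and prp-40 peaks were therefore among the strongest of 1 replicate and without a window summit in the relaxed list of the other. The remaining prp genes with a pooled summit were prp-3, prp-21, prp-38, prp-18, prp-17 and prp-4, in order of signal from 18.7 at rank 4998 to 12.6 at rank 18057. Of these, prp-3 and prp-21, which act in the U4/U6 and U2 particles, had a summit in both replicates. The gene prp-19, for a ubiquitin ligase of the spliceosome, had no summit in the pooled list or replicate 1, and a replicate 2 signal of 14.5 at rank 2229.

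The rnp genes are named only for an RNA-binding domain and include genes with other roles, such as rnp-4, for the exon junction protein Y14, and rnp-8, for a partner of the poly(A) polymerase GLD-2 in the germ line. Of the 9, 6 had a pooled summit, 66.7%, against 45.0% of all genes, with signals from 10.8 to 43.5. Only rnp-6 was reached by the 2000 strongest, 1 of 9 or 11.1%, against 7.93%. Without the rnp genes, 4 of 33 members had an optimal summit, 12.1%, against 2.40%. A pooled summit was then at 27, 81.8%, against 45.0%, and both replicates had one at 19, 57.6%, against 20.3%. The RNPS1 homologue rnp-5 had 21.8 at rank 2787, 31 bp from tag-51, with ranks 6166 and 10013 in replicates 1 and 2. The gene rnp-2, which encodes an RNA-binding protein of the U1 and U2 snRNPs, had 19.3 at rank 4395, 97 bp upstream. Its replicate summits lay apart, 174 bp upstream in replicate 1 at rank 1430 and 116 bp downstream in replicate 2 at rank 4282. The others were weaker: rnp-7, for the U1-70K protein, had 13.7, rnp-3 had 12.5 and rnp-1 had 10.8, close to the lowest pooled value of 10.1.

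In all, 6 of the 42 genes had no summit in any list: prp-9, prp-39, rnp-8, rnp-9, rsp-4 and uaf-1. Besides rsp-4 and uaf-1, prp-39 also had a pooled summit not far outside the window, 1280 bp upstream with a signal of 18.3 at rank 5342. The nearest pooled summit of prp-9, whose product belongs to the U2 snRNP, was 5390 bp away, and that of rnp-9 was 3298 bp away. At rnp-8 a weak pooled summit, signal 10.2 at rank 29628, lay 179 bp from the 5′ end of another of its transcripts. The gene rnp-4 had no pooled summit in its window and a replicate 1 signal of 6.91 at rank 19675.

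**Figure D3:**
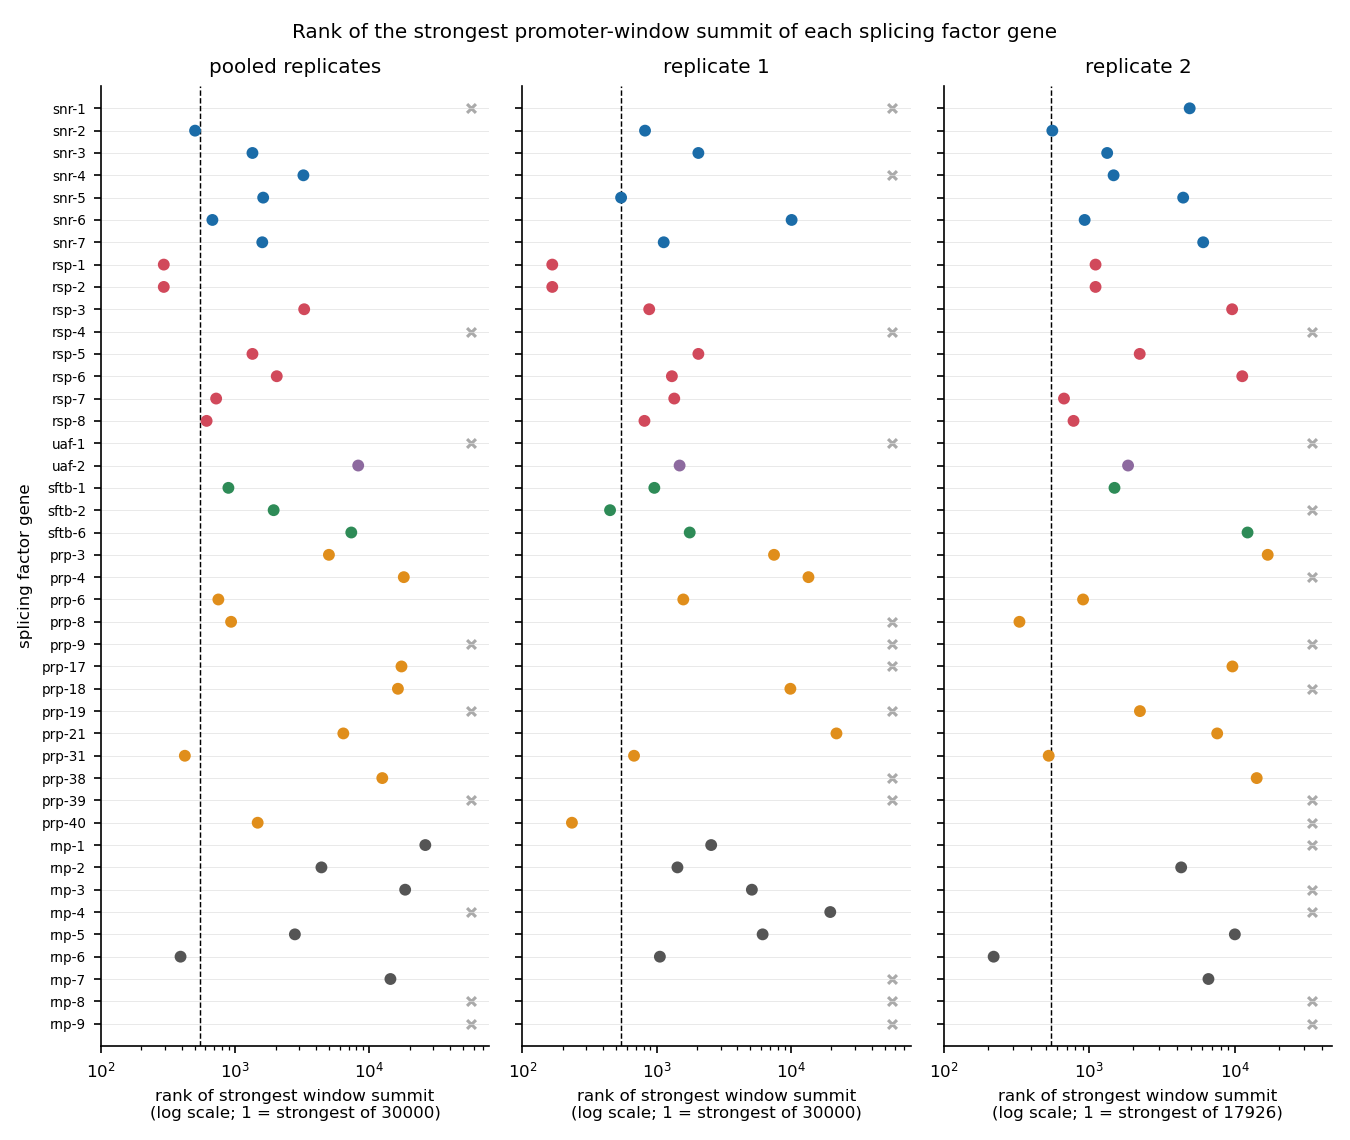
Rank of the strongest promoter-window summit (x axis, log scale, 1 = strongest) of each of the 42 splicing factor genes (rows, coloured by name family) in the pooled, replicate 1 and replicate 2 relaxed lists; grey crosses at the right mark genes with no summit, and the dashed line is the length of the optimal list, 545. In the pooled panel 5 genes stand left of the line, all 5 of them among rsp, snr, prp and rnp genes, and 9 have crosses.

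Most summits lay upstream of the genes. Of the 33 strongest pooled summits, 31 were upstream of the member's 5′ end, 93.9%, against 74.8% for all genes with a pooled summit, and only those of prp-38 and uaf-2 were downstream. The median position was 245 bp upstream for the members and 232 bp upstream for all genes. By annotation 25 of the 33 lay in intergenic sequence, 3 in coding exons, 2 in introns, 2 in 3′ UTRs and 1 in a 5′ UTR. For 20 of the 33 the member's own 5′ end was the nearest to the summit, and for 24 the summit lay in the window of another gene too. The summits of the other 13 were nearer to another gene. The same shares over all genes with a pooled summit are not given for annotation, nearest 5′ end or shared windows. Those counts therefore describe the members alone.

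**Figure D4:**
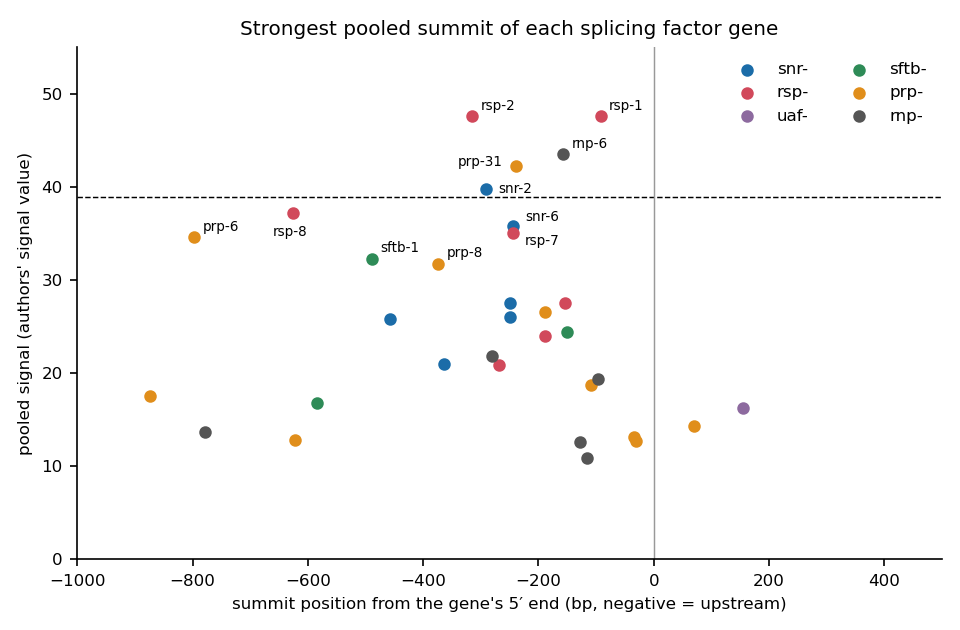
Pooled signal (y axis, authors' value) against position from the gene's 5′ end (x axis, bp, negative is upstream) for the strongest pooled summit of each of 33 splicing factor genes, coloured by name family; the dashed line is the lowest signal of the optimal list, 38.9, and points above a signal of 30 are named. The 5 points above the line lie between 92 and 315 bp upstream, and 2 of the 33 points lie downstream.

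The splicing factor genes were often head to head with a neighbour. A gene was counted as head to head when a gene on the other strand had its 5′ end within 1000 bp upstream, and 26 of the 42 were, 61.9%, against 17.7% of all protein-coding genes. All 5 members with an optimal summit were head to head, but they rest on 4 summits, and rsp-1 and rsp-2 are each other's neighbour. Among all 480 genes with an optimal summit, slightly fewer were head to head than were not. Of the 26, 5 had an optimal summit, 19.2%, against 6.64% of the 3539 head-to-head genes, and 14 were reached by the 2000 strongest pooled peaks, 53.8%, against 20.6%. The pooled list reached 23 of the 26, 88.5%, against 56.7%. A summit between head-to-head genes falls in 2 windows, and the part of the arrangement in the members' counts was not tested beyond these shares.

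A further 7 of the 42, or 16.7%, followed a same-strand gene that ended within 500 bp and were not head to head, against 17.9% of all genes. They include rnp-3, which starts 73 bp after rnp-2 ends, prp-38, 107 bp after plrg-1, and rnp-7, 5 bp after syf-2, where plrg-1 and syf-2 are splicing genes as well. None of the 7 had an optimal summit or one among the 2000 strongest pooled peaks, against 1.57% and 5.48% of the 3574 genes so placed, and 5 had a pooled summit, against 44.8%. Of the 9 remaining members 5 had a pooled summit, 55.6%, against 41.8% of 12860 genes, and 3 were reached by the 2000 strongest, 33.3%, against 5.12%.

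The order of the members differed between the replicates. Of the 42 genes, 7 had a summit in replicate 1 only and 7 in replicate 2 only. The members' shares were 69.0% in each replicate and 52.4% in both. Over all protein-coding genes 45.3% had a summit in replicate 1 and 31.2% in replicate 2, but only 20.3% in both. A summit in 1 replicate alone was therefore not particular to the members. Among all genes it was more often in replicate 1 alone, while the members were even. For the 22 with a summit in both, the median rank was 1327 in replicate 1 and 1669 in replicate 2. The 2 replicate summits lay within 100 bp of each other for 16 of the 22, 72.7%, against 43.4% of all genes with a summit in both. The median was 39 bp, against 133 bp. Shared summits were counted for each gene, and peak strength was not matched between the members and all genes. Over the 20 distinct replicate 1 summits of these genes, which all come from the same 2 libraries, Spearman's rho between the replicates' signals was 0.43, given as a description.

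The strongest peaks of each replicate were counted separately. The 545 strongest peaks of replicate 1 reached 5 members, rsp-1, rsp-2, prp-40, sftb-2 and snr-5, 11.9%, against 2.49% of all genes. The 545 strongest of replicate 2 reached 3, rnp-6, prp-8 and prp-31, 7.14%, against 2.22% of all genes. The 2 sets had no member in common, 0 of 42 (interval 0% to 8.41%), against 214 or 1.07% of all genes, a difference that 42 genes cannot show.

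**Figure D5:**
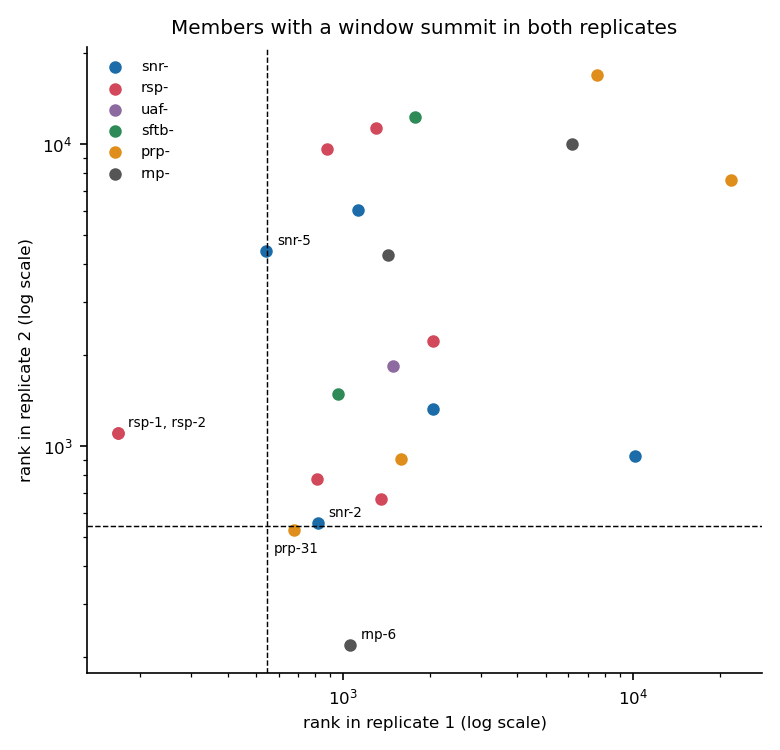
Rank in replicate 2 (y axis, log scale) against rank in replicate 1 (x axis, log scale) of the strongest window summit for the 22 splicing factor genes with a summit in both replicates, coloured by name family; dashed lines mark rank 545 in each. No point lies in the lower left, where both ranks would be within 545, while rsp-1 and rsp-2 (rank 167 in replicate 1, 1104 in replicate 2) and rnp-6 (1058 and 220) lie past 1 line each.

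The words under the summits were compared with those under other promoter summits. Within 50 bp of the 31 distinct strongest pooled summits, 5 held a homeodomain word, 16.1%, against 14.6% of the 9312 pooled summits in any promoter window, and TAAT alone was at 61.3%, against 60.8%. A CG-holding word was at 11 of 31, 35.5%, against 15.1%. The 31 are the strongest summits of their genes, whereas the 9312 include weaker ones, so these shares were not matched for peak strength. Mean GC content was also higher at the 31 than at the 9312. Among the 2000 strongest peaks the CG words were at 6 of 15 member summits, 40.0%, against 42.3% of 1159, with mean GC content of 43.9% and 44.4%. There homeodomain words were at 2 of 15, 13.3%, against 10.9%, and TAAT was at 9 of 15, 60.0%, against 40.6%. The shares of the CG words were thus close among strong peaks only, and those of TAAT were close only over all pooled summits.

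The 4 optimal summits of members included 1 with a homeodomain word, at rnp-6, against 7.89% of all 545 and 8.55% of the 339 in promoter windows. A CG word was at 2 of the 4, at rsp-1 with rsp-2 and at rnp-6, against 46.8% and 54.0%. TAAT was at 2 of the 4, against 33.4% and 31.6%. GACGCA was found at more member summits than the other searched words of its length, 6 of 31, 19.4%, against 5.29% of pooled promoter summits, among them those of prp-18, prp-21, prp-40, rsp-6 and the rsp-1 and rsp-2 pair. Among the 2000 strongest peaks GACGCA was at 3 of 15 member summits, 20%, against 15.1%. Shares over the 31, for GACGCA and for the words that follow, were not matched for peak strength. TAATTG was at 4 of 31, 12.9%, against 7.04%, at prp-3, rnp-6, rnp-7 and rsp-8, and at 2 of 15, 13.3%, against 4.23% among the 2000 strongest. The word GGTCTCGC was at 2 of 31, 6.45%, against 0.966%, and at 2 of 15, 13.3%, against 3.54% among the 2000 strongest, a choice made from these same windows. A match describes the letters there and not a binding site, and the CG words come from an earlier look at these peaks.

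Other genes of the splicing machinery were counted in the same way. The 95 further genes included those for U1, U2, U4/U6 and U5 proteins, LSm proteins, snRNP assembly factors and splicing regulators. Of them 4 had an optimal summit, 4.21% (interval 1.16% to 10.4%), against 2.40% of all protein-coding genes, which lies within that interval. The interval is a description and no test, and these genes were not tested against the members. The 2000 strongest pooled peaks reached 23, 24.2%, against 7.93%. Pooled summits were at 66, 69.5%, against 45.0%, and both replicates had one at 46, 48.4%, against 20.3%. Among the 4 were smu-1 and hel-1. The gene smu-1, an alternative splicing factor, had the highest signal of any of these genes, 67.9 at pooled rank 81, with its summit 2 bp downstream of the 5′ end and ranks 21 and 736 in replicates 1 and 2.

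The gene hel-1, for an RNA helicase of splicing and mRNA export, had 42.6 at rank 409, in an intron of C26D10.3, with ranks 562 and 2025 in replicates 1 and 2. All 4 had a rank within 545 in at most 1 replicate, as did the members.

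The cytosolic ribosomal protein genes, a set of highly expressed housekeeping genes, were counted too. Among the 42 splicing factor genes 11.9% had an optimal summit, against 25 of 78 or 32.1% (interval 21.9% to 43.6%) of the ribosomal protein genes, and 40.5% were reached by the 2000 strongest pooled peaks, against 70.5%. In both replicates a summit was found for 52.4% of the splicing factor genes, against 84.6% of the ribosomal protein genes. Expression level was not measured in these data, and its part in either share was not tested.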

How the data were processed

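ChIP-seq of eGFP-tagged CEH-30 was done in late embryos in 2 biological replicates of 1 group. Per the deposited descriptions of the files, the authors called relaxed lists with a control alignment, first for each replicate and then for both together, and the IDR procedure gave the optimal list. Which aligner, peak caller and IDR threshold they used is not given in the sources used here. Each peak carries a deposited signal, the authors' value on a scale of its list, and this was used only to rank peaks within a list. The control library and the ce10 lists were not used here.

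Summits on ce11 were set against the 5′ ends of Ensembl release 115 genes with Python 3.11.15, pandas 2.3.3, NumPy 2.4.6 and SciPy 1.17.1. A gene was counted once however many summits its window held, and its values are those of the strongest. Genes named in the text were all those with an optimal summit, the 6 strongest others, those ranked within 545 in a replicate and those with no summit; the rest were named by family. The counting was tested on simulated data. The members, the word lists and the gene lists were chosen with earlier results of these data known, and of the names listed for other splicing genes 95 were matched. Other windows, 5′ ends, overlap rules, peak thresholds and replicates were tried as alternatives. The counts at 1000 to 10000 pooled peaks, GGTCTCGC and the split by chromosome were added after the data were seen. Some genes and sequences that the same rules would have named are not reported here.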

Additional observations from a re-analysis of the deposited data

How the results depend on the processing

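No paired analysis was possible because there is only 1 group. Of 42 alternatives, 33 left a count within 1.5 times its value, a position within 1 SD of the replicates' medians or a share within its exact interval, and 9 did not. The 5 members with an optimal summit became 2, prp-31 and rsp-1, 4.76%, against 1.68% of all genes, when a summit counted only for its nearest 5′ end, and 0, against 1.20%, among the optimal peaks above that list's median signal, which then gave no median position. With the 545 strongest peaks of 1 replicate in place of the optimal list the count was 3 to 5, with different genes. The members in both replicates, 22 of 42, were 11 by nearest 5′ end, 26.2%, against 15.5% of all genes by that rule. The other splicing genes with an optimal summit fell to 1 above the median signal, and were 3 to 5 with 1 replicate. The median position of the members' optimal summits, -239 bp, was -291 bp from transcript 5′ ends and -165.5 bp by nearest 5′ end, and -239 to -183 bp with 1 replicate. The share of members' optimal summits with a homeodomain word, 25%, was 0% within 25 bp. The pooled count of 33 was 23 by nearest 5′ end, 54.8%, against 39.01% of all genes, and 37 with a window from 2000 bp upstream, 88.1%, against 58.5%, which added prp-39, rnp-4, rsp-4 and uaf-1. Depth is unknown, so a missing summit does not show that the protein was absent there.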
